A study of Mus musculus with 4 samples.

Results

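The 8 genes of hemoglobin, heme and early red-cell enzymes were followed across 4 single-cell libraries of mouse bone marrow. They are 8 of the 31053 genes in the count matrices and were taken by gene symbol: the adult beta-globins Hbb-bs and Hbb-bt, the alpha-globins Hba-a1 and Hba-a2, the heme synthesis enzyme gene Alas2, the carbonic anhydrases Car1 and Car2, and the transferrin receptor gene Tfrc. All 8 symbols were found, and no member was dropped.

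The cells came from 2 sorts of bone marrow, each from control and STAT5 knockout (KO) mice, with 1 library per group. KLS cells were sorted from lineage-depleted marrow by c-Kit and Sca-1 without lineage markers, a fraction that holds blood stem cells and early progenitors. MSC cells were sorted from collagenase-treated bone as CD45neg, Ter119 negative or low, CD71neg, Sca-1+ and CD140a+ stromal cells. Libraries were made with droplet capture and 3′ counting of unique molecular identifiers (UMIs), each UMI standing for 1 captured RNA molecule.

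The control mice were Vav1-Cre/+STAT5ab+/+ and the knockout mice Vav1-Cre/+STAT5abfl/fl, so both genotypes carried the Cre transgene. Vav1-Cre acts in blood cells, and the stromal cells of the knockout mice need not lack Stat5. The KLS groups came from mice of 8 to 12 weeks, with 4 mice named in the labels, and the MSC groups from mice of 6 to 8 weeks, with no number of mice given. Animals were not labelled within a library, so no value below has a spread between animals. All intervals are 95% intervals of counting error only, and no test of the genotype was possible.

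Adult hemoglobin joins alpha- and beta-globin chains around heme, which carries oxygen. Maturing red cells import iron through the transferrin receptor, start heme synthesis with the erythroid enzyme made from Alas2, and fill with globin RNA until it makes up most of what they transcribe. Carbonic anhydrases convert carbon dioxide to bicarbonate. In blood formation, Car1 and the transcription factor genes Klf1 and Gata1 mark young red-cell precursors, whereas the membrane protein gene Slc4a1 and globin RNA accumulate late.

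The promoters of 3 adult globin genes are shown because their RNAs behaved differently from each other in the KLS libraries. RefSeq's promoter table (GRCm38.p6) holds 6 of the 8 members, and the sequences are the 250 bases before RefSeq's annotated start on the gene's strand. They lie at chr7:103827929-103828178 (minus strand) for Hbb-bs, chr7:103813924-103814173 (minus strand) for Hbb-bt and chr11:32283422-32283671 (plus strand) for Hba-a1. Capitals mark the GATA-factor motif GATAAG, the CACCC box, the CCAAT box and the TATA-like motif ATATAA, each searched by these letters on both strands, with no hit overlapping another.
Hbb-bs: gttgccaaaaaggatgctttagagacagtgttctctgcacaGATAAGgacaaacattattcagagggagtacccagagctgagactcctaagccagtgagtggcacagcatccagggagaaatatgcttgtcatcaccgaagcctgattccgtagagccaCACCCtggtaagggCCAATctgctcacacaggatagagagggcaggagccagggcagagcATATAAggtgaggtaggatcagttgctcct
Hbb-bt: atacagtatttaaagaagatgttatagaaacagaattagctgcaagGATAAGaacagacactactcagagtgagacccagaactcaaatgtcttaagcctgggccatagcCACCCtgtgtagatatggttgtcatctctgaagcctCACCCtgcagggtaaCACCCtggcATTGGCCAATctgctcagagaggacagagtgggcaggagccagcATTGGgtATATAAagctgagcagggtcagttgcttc
Hba-a1: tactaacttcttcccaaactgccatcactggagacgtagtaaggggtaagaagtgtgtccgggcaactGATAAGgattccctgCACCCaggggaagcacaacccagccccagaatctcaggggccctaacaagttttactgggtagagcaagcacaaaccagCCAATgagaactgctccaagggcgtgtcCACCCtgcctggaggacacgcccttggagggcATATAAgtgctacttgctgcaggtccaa

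Each globin promoter held all 4 motifs. The GATAAG motif, the letters bound by GATA factors, began 209 bases before the start in Hbb-bs, 204 in Hbb-bt and 182 in Hba-a1. Of 32851 mouse promoters of this length, 6.55% held GATAAG, 52.0% CACCC, 33.8% CCAAT and 9.10% ATATAA. Hbb-bs had 1 hit of each motif, whereas Hbb-bt had 3 CACCC and 3 CCAAT hits and Hba-a1 had 2 CACCC hits. The Hbb-bs and Hbb-bt promoters matched at 178 of 257 aligned positions (69.3%), against 247 of 253 (97.6%) for Hba-a1 and Hba-a2. A match of these letters is a description of the window, not a measured binding site.

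The members sit at a few loci. In GENCODE M21 (GRCm38) Hbb-bs lies at chr7:103826534-103828096 and Hbb-bt at chr7:103812524-103813996, both on the minus strand. Hba-a1 (chr11:32283511-32284465) and Hba-a2 (chr11:32296489-32297298) are on the plus strand of chromosome 11. The GENCODE starts of Hbb-bs, Hbb-bt and Hba-a1 lie inside the promoter windows printed above, so the motif distances hold for the RefSeq starts only. Car1 (chr3:14766216-14808368, minus strand) and Car2 (chr3:14886273-14900770, plus strand) are neighbours on chromosome 3. Alas2 is on chromosome X (150547375 to 150570638) and Tfrc on chromosome 16 (32608920 to 32632794), both on the plus strand.

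Near-identical transcripts limit how the globins can be told apart. Of the 50-base windows in the last 300 bases of each transcript, 36.7% of Hbb-bs occurred in Hbb-bt, and 80.1% of Hba-a1 occurred in Hba-a2. How reads shared by these pairs were counted is not given in the sources used here, so the split between Hba-a1 and Hba-a2 in particular is uncertain. Alas2 overlaps Apex2 on the opposite strand, and the strand rule of the counting is likewise not given.

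The 4 libraries held 3747 barcodes for KLS control, 7511 for KLS STAT5 KO, 672 for MSC control and 425 for MSC STAT5 KO. After filters 3085, 6726, 577 and 374 cells were kept, with median depths of 15136, 10085, 2732 and 2496 UMIs. The study's design text counts 605 CD45neg cells among 10008 sorted KLS cells, and the 2 KLS libraries held 11258 barcodes, of which 9811 were kept here. Stat5a and Stat5b together stood at 129 counts per 1000000 UMIs (CPM) in KLS control and 11.2 in KLS STAT5 KO, but at 90.1 and 102 in MSC control and MSC STAT5 KO.

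Barcodes were shared between libraries, also between sorts that are separate cell suspensions. KLS control shared 227 barcodes with MSC control and 197 with MSC STAT5 KO. KLS STAT5 KO shared 158 with MSC control and 168 with MSC STAT5 KO, so sharing between sorts was not limited to the same genotype. The KLS libraries shared 290 with each other and the MSC libraries 42. A barcode with more UMIs in another library was left out of the library where it was smaller, which removed 388, 281, 33 and 17 barcodes from KLS control, KLS STAT5 KO, MSC control and MSC STAT5 KO. Of all adult globin UMIs in the files, 82.8% of those in KLS control and 55.1% of those in KLS STAT5 KO lay in such barcodes. Among them were 14 KLS control and 10 KLS STAT5 KO barcodes with at least 50% globin, all present in an MSC library too. Of the kept MSC cells, 192 of 577 in the control and 178 of 374 in the KO had a barcode that a KLS library also held, so results that rest on them are given with and without them.

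Globin RNA was a trace in the KLS sort and far higher in the MSC sort, where it was still a small part of all UMIs. Most of the MSC globin lay in a minority of the cells, as described below. Among KLS cells Hbb-bs, an adult beta-globin, stood at 3.75 CPM for control (192 UMIs) and 10.8 CPM for STAT5 KO, and among MSC cells at 14807 and 6394 CPM. Hbb-bt, the second adult beta-globin, stood at 32.6, 49.7, 3794 and 1613 CPM in the same order of libraries. The alpha-globin Hba-a1 stood at 3.42, 5.39, 7214 and 3646 CPM. For its near-copy Hba-a2 the levels were 1.25, 3.39, 5153 and 2602 CPM.

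Within the controls Hbb-bs was 3944-fold higher in MSC than in KLS, Hba-a1 2108-fold, Hba-a2 4117-fold and Hbb-bt 116-fold. Within STAT5 KO the same ratios were 591-, 676-, 767- and 32.4-fold. Over all kept cells the order of the libraries was the same for the 4 globins, MSC control above MSC STAT5 KO above both KLS libraries. Without the barcodes that the other sort also held, MSC STAT5 KO was above MSC control for each of the 4. The ratios of MSC to KLS for Hbb-bs, Hba-a1, Hba-a2 and Hbb-bt were then 2529-, 1669-, 3548- and 82.2-fold in the controls and 5544-, 3584-, 6024- and 98.9-fold in the KO. Hbb-bt had the smallest ratio of the 4 globins in both genotypes. By UMIs it was the most abundant globin in each KLS library and the least abundant in each MSC library.

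Outside the globins the sorts divided the members. Alas2, which encodes the erythroid form of the first enzyme of heme synthesis, had 2 UMIs in all kept KLS control cells and 3 in KLS STAT5 KO, against 275 UMIs (157 CPM) in MSC control cells and 141 UMIs (118 CPM) in those of MSC STAT5 KO. Car1 went the other way. It had 4672 UMIs (91.4 CPM) in KLS control and 7084 UMIs (92.7 CPM) in KLS STAT5 KO, against 1 UMI in MSC control cells and 0 in MSC STAT5 KO cells, at least 37.1-fold lower in the KO.

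Car2 and Tfrc were present in every library. Among KLS cells Car2 stood at 596 CPM for control and 348 CPM for STAT5 KO, and among MSC cells at 173 and 147 CPM, 3.45-fold lower in MSC for controls and 2.37-fold lower for KO. Tfrc, whose protein CD71 the MSC gate excluded, stood at 24.6, 32.6, 132 and 183 CPM, 5.39-fold and 5.60-fold higher in the MSC libraries. Leaving out barcodes shared with the other sort, Tfrc was 11.4- and 22.0-fold higher in MSC, whereas Car2 was 2.38-fold lower in the controls and 1.54-fold higher in the KO, so its direction in the KO turned. With 2-fold as the mark and all kept cells counted, 6 members were higher and 2 lower in MSC in each genotype. Of all genes tested in these comparisons, 22.2% were higher and 33.4% lower in the controls, and 22.5% and 35.5% in the KO. The plot of levels by library shows these opposed patterns.

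**Figure D1:**
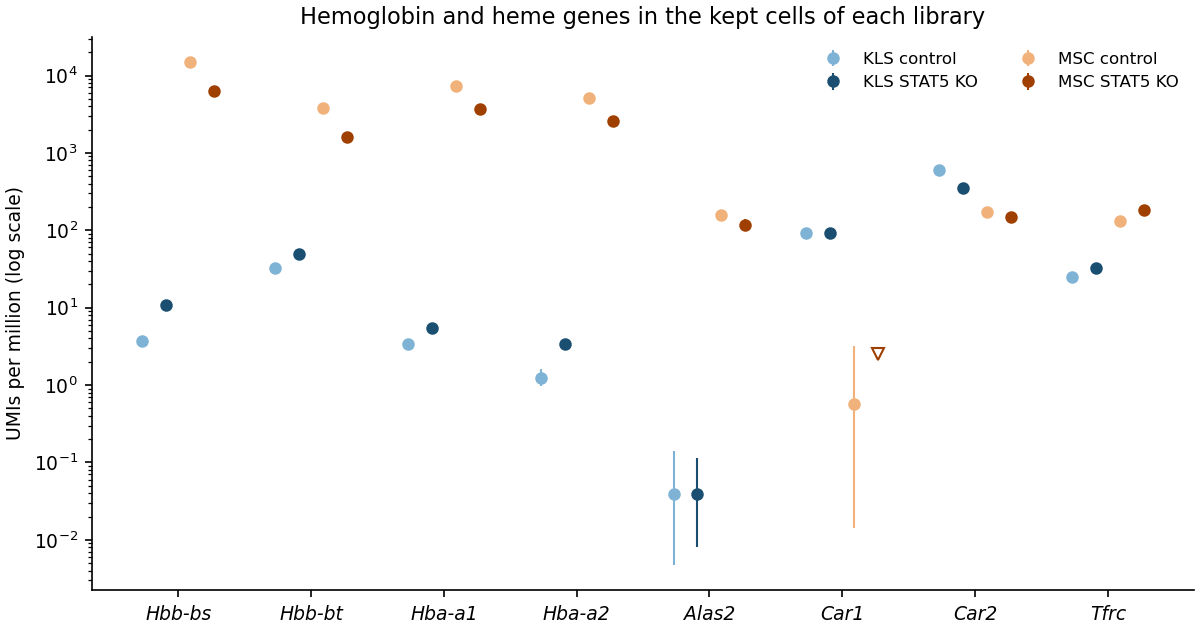
Level of each member in the kept cells of each library, in CPM on a log axis; bars are 95% Poisson intervals and the open triangle is the 3-UMI limit where no UMI was found. The 4 globins and Alas2 are high in both MSC libraries, whereas Car1 is at 91.4 and 92.7 CPM in KLS and at 1 and 0 UMIs in MSC.

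Red-cell precursors were looked for with 13 membrane and surface genes of maturing red cells (among them Slc4a1, Epb42, Sptb, Ermap, Rhag, Rhd, Kel, Tspo2, Trim10, Cldn13 and Icam4), none of them a member. A cell with UMIs of at least 3 of these is called erythroid-marked here, and a cell with none is called marker-negative. Erythroid-marked cells made up 29 of 3085 KLS control cells (0.940%, 0.630 to 1.35), 95 of 6726 KLS STAT5 KO cells (1.41%, 1.14 to 1.72), 124 of 577 MSC control cells (21.5%, 18.2 to 25.1) and 93 of 374 MSC STAT5 KO cells (24.9%, 20.6 to 29.6). The count of markers depends on depth, and the depths were far apart: the marked cells had median totals of 40893 and 23157 UMIs in the KLS libraries but 648 and 633 in the MSC libraries. When cells were thinned to 1000 UMIs and the 6, 2, 143 and 98 cells below that depth were left out, the shares were 0.0974%, 0.0446%, 2.995% and 3.26%. They rest on few marked cells, 3 of 3079, 3 of 6724, 13 of 434 and 9 of 276. Most marked MSC cells lay below that depth and so are not in these shares.

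Globin content set the marked cells of the 2 sorts apart. In MSC control every marked cell held globin, at 7.92% to 91.4% of its UMIs with a median of 18.4%, and in MSC STAT5 KO at 7.03% to 83.0% with a median of 14.6%. The marked KLS cells had at most 0.0841% globin in the control and 0.210% in the KO. The ranges of the sorts did not overlap, although the KLS cells were the deeper ones.

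Of the kept globin UMIs, marked cells carried 92.5% in MSC control, and 98.6% in the KO library. In the KLS libraries they carried 5.82% and 7.82%, so most globin UMIs of the kept KLS cells lay in cells below that marker count. In the plot of globin against marker number, the MSC barcodes form a separate group of high globin and high marker count.

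**Figure D2:**
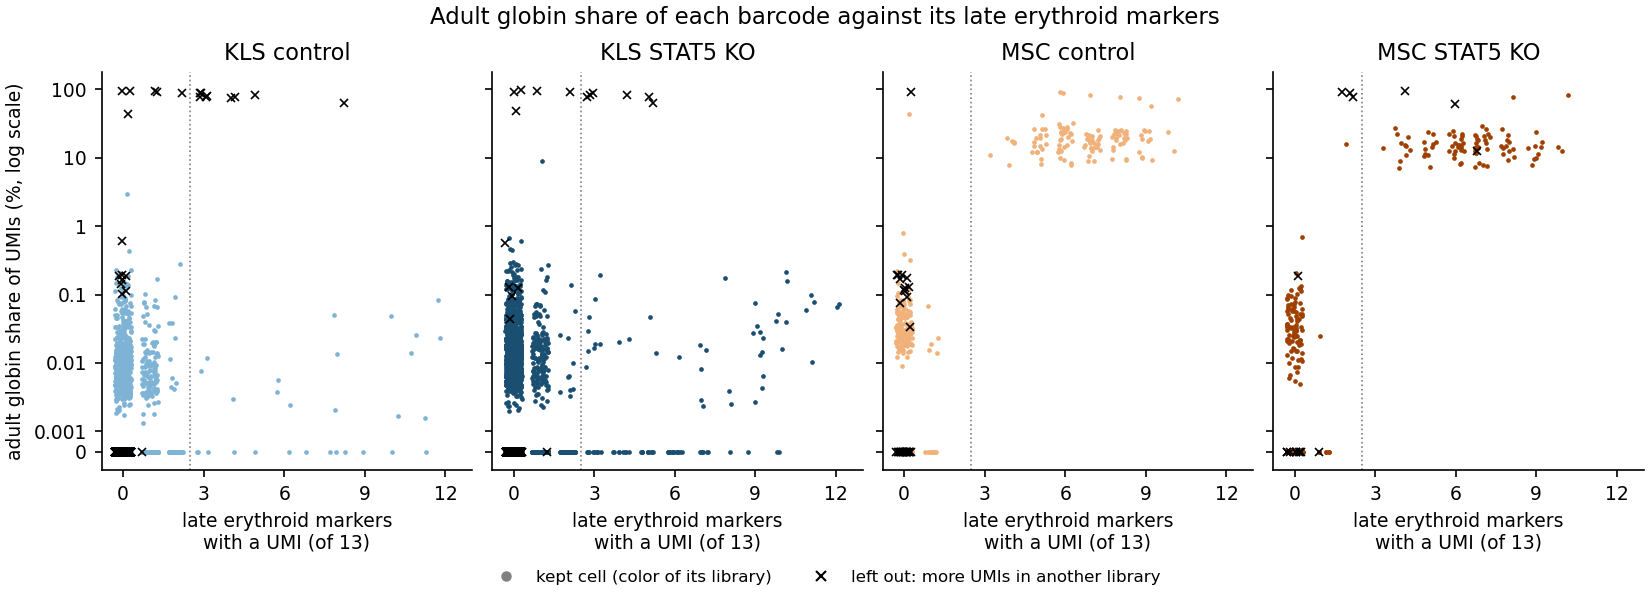
Share of adult globin in each barcode's UMIs (log axis, zeros on the bottom line) against the number of the 13 late erythroid markers with a UMI, 1 panel per library; the dotted line is at 3 markers and crosses are barcodes with more UMIs in another library. Marked MSC cells lie at 7.03% globin or more and marked KLS cells at 0.210% or less. The globin-rich points of the KLS panels are crosses apart from 1 KO cell at 8.95% and 1 control cell at 2.96%.

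Some erythroid genes differed between the marked cells of KLS and MSC. Slc4a1, the anion exchanger of the red-cell membrane, is itself among the markers that define a marked cell. Its detection in marked cells is therefore partly set by that choice. Slc4a1 had UMIs in 97.6% of marked MSC control cells and 98.9% of marked MSC STAT5 KO cells. In marked KLS cells it was found in 0 of 29 for control and 1 of 95 for STAT5 KO. Klf1 and Gata1, transcription factors of young erythroid cells, each had UMIs in 96.6% of marked KLS control cells, and in 82.1% and 80.0% of those in KLS STAT5 KO. In marked MSC cells Klf1 was found in 1.61% and 0%, and Gata1 in 0% and 1.08%, at the lower depth given above. The level of Klf1 was 79.6 CPM (10 UMIs) in marked MSC control cells and 207 in marked KLS control cells, 2.60-fold lower in MSC. In the KO, Klf1 had 0 UMIs in marked MSC cells against 229 CPM in marked KLS cells. Gata1 had 0 and 1 UMIs in marked MSC cells against 154 and 140 CPM in marked KLS cells. Epor, the erythropoietin receptor, was found in 86.2% and 75.8% of marked KLS cells and in 8.06% and 7.53% of marked MSC cells. By CPM Epor stood at 107 and 116 in marked KLS cells, and at 95.5 and 112 in marked MSC cells (12 and 8 UMIs). The intervals of its MSC to KLS ratios include no difference (log2 -1.15 to 0.70 in controls and -1.28 to 0.95 in KO). This does not show that the levels were alike, and a gap in level was not resolved at these counts.

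Markers of other cells were checked in the same cells. Ptprc, which encodes CD45, stood at 40.0 and 29.5 CPM in marked KLS cells of control and KO, against 160 and 161 CPM in marker-negative KLS cells, and at 0 in marked MSC cells. The marked MSC cells held only 125684 and 71602 UMIs. In the KO their 3-UMI limit lies above the level of marked KLS cells, so a difference cannot be shown there. The 14 stromal markers summed to 191 and 182 CPM in marked MSC cells, against 56270 and 65984 CPM in marker-negative MSC cells. In marked KLS STAT5 KO cells the plasma and B-cell list stood at 2847 CPM, with UMIs in 5 of 95 cells. The part of these other transcripts in the member values was not tested.

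Among marked cells, globins and Alas2 were high in MSC and Car1 was high in KLS. Hbb-bs stood at 18.7 CPM for control and 32.9 CPM for STAT5 KO in the KLS sort, and at 188139 and 105458 CPM in the MSC sort. Hba-a1 stood at 61.3, 79.6, 93878 and 60320 CPM. Without the cells of 50% globin or more the MSC levels were lower, at 77528 and 63552 CPM for Hbb-bs and 47667 and 39624 CPM for Hba-a1, still 4154- and 1931-fold and 777- and 498-fold above KLS. Alas2 stood at 0 UMIs, 1 UMI, 2101 CPM and 1955 CPM, at least 788-fold higher in MSC control than in KLS control. It was seen in 71.0% and 69.9% of the shallow marked MSC cells but in 1 of 124 deep marked KLS cells of both genotypes.

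Car1 stood at 3915 CPM (3800 to 4032) in marked KLS control cells and 3204 CPM (3127 to 3283) in marked KLS STAT5 KO cells. Its median was 135 and 41 UMIs per cell, and 96.6% and 94.7% of these cells had it. The marked MSC cells had 1 Car1 UMI in the control and 0 in the KO, which is at least 76.5-fold lower in the KO. Car1 had the most UMIs of the 8 members in marked KLS cells and was at the counting limit in marked MSC cells.

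Car2 and Tfrc were shared by both kinds of marked cell. Car2 stood at 2323, 1896, 2387 and 2374 CPM in KLS control, KLS STAT5 KO, MSC control and MSC STAT5 KO, a difference of 1.03-fold between sorts in the controls and 1.25-fold in the KO. Tfrc stood at 163, 205, 1575 and 2458 CPM, 9.69-fold and 12.0-fold higher in MSC, and 14.2- and 13.5-fold without the cells of 50% globin or more. It had UMIs in 71.8% and 75.3% of marked MSC cells, which came through a gate against its protein.

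By the 2-fold mark 6 members were higher and 1 lower in marked MSC than in marked KLS cells, in each genotype. Of all genes tested 11.8% were higher and 79.2% lower in the controls, and 10.5% and 79.9% in the KO, so the members lay on the side of the few genes that were higher. Globin UMIs take up a large part of the totals of marked MSC cells, which lowers the CPM of every other gene there.

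**Figure D3:**
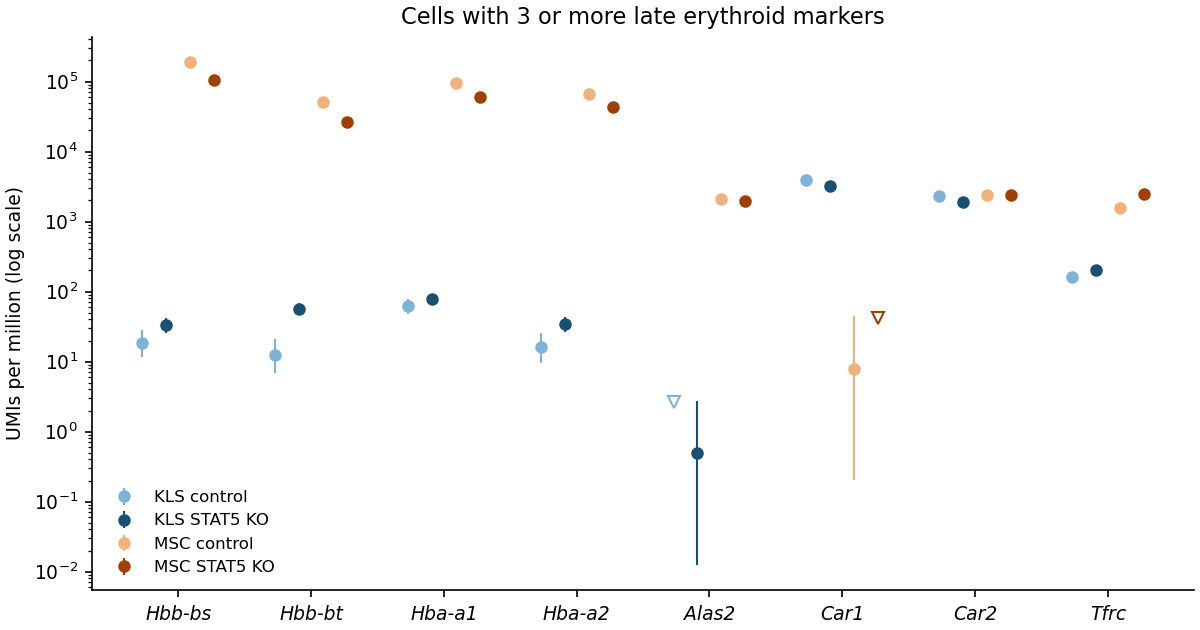
Level of each member in erythroid-marked cells of the 4 libraries, in CPM on a log axis with 95% Poisson intervals; open triangles are the 3-UMI limit where no UMI was found. Car2 lies between 1896 and 2387 CPM in all 4 libraries, Car1 is high in the KLS libraries, and Alas2 and the globins are high in the MSC libraries.

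Within each library the members were compared between marked and marker-negative cells. In KLS control 5 of the 6 members with enough UMIs were at least 2-fold higher in marked cells, where 6.15% of all genes were: Car1 4021-fold, Hba-a1 40.3-fold, Tfrc 7.58-fold, Hbb-bs 7.40-fold and Car2 4.40-fold. Hbb-bt was 2.57-fold lower in marked cells, as were 27.9% of all genes. In KLS STAT5 KO 6 of 7 members were higher, against 5.62% of genes, with Car1 1122-fold, Hba-a1 124-fold, Hba-a2 63.9-fold and Hbb-bs 15.6-fold. Hbb-bt was 1.17-fold higher there and was the member that did not reach 2-fold.

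In the MSC libraries all 7 testable members were higher in marked cells, against 9.59% of genes in the control and 11.5% in the KO, while 82% and 78.9% of genes were lower. Alas2 was 297-fold higher in the control, from 264 UMIs against 11. Tfrc was 84.4-fold higher in the control and 64.2-fold in the KO. Hbb-bs was 127-fold higher in the control and 1411-fold in the KO, and the control value rests on 1 cell described below. Among barcodes absent from the KLS libraries, Hbb-bs was 785-fold higher in the control and 687-fold in the KO, Tfrc 176- and 127-fold, and Alas2 had 146 and 124 UMIs in marked cells against 1 and 1.

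Hbb-bt in the KLS libraries did not follow the other globins. In marker-negative KLS cells it made up 1279 of 1461 globin UMIs in the control (87.5%, 85.7 to 89.2) and 3112 of 3322 in the KO (93.7%, 92.8 to 94.5). In the left-out KLS barcodes, most of whose globin lay in globin-filled barcodes, it made up 13.3% and 13.4%, with Hbb-bs at 54.9% and 55.3%. In marked MSC cells its share was 12.6% and 11.3%, and in marker-negative MSC cells with under 10% globin 12.7% and 11.04%. In marked KLS cells it made up 11.5% and 28.0%, and the alpha-globins together 71.3% and 55.8%. The share of Hbb-bt was thus higher in marker-negative KLS cells than in each of these other groups, beyond the counting intervals.

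Single cells showed the same. Of the marker-negative cells with Hbb-bt, 437 in KLS control and 1015 in KLS STAT5 KO, 417 (95.4%) and 981 (96.7%) had no UMI of Hbb-bs, Hba-a1 or Hba-a2. At 10 or more Hbb-bt UMIs there were 23 and 57 cells, of which 22 and 54 had none of the other globins. The highest cells held 50 Hbb-bt UMIs in the control and 69 in the KO, with 0 UMIs of the other 3 genes. Hbb-bt and Hbb-bs transcripts share part of their 3′ sequence, and whether these UMIs come from spliced Hbb-bt RNA was not tested.

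**Figure D4:**
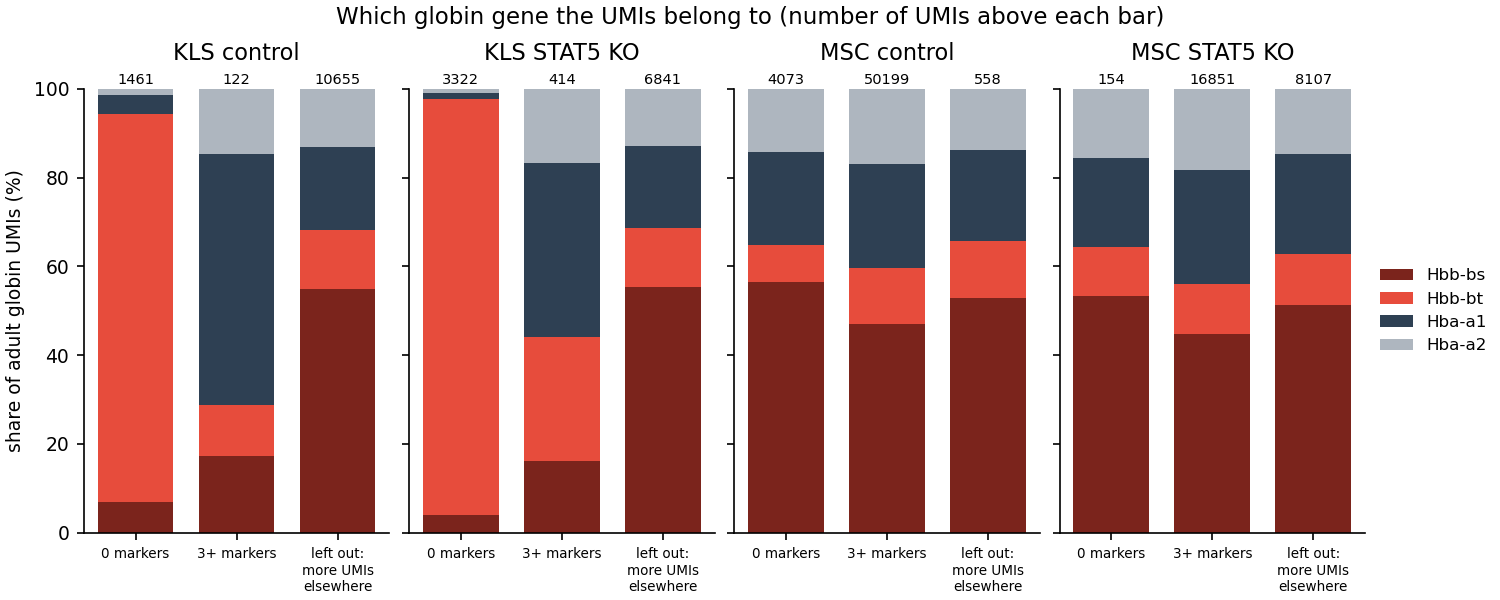
Make-up of the adult globin UMIs by gene in marker-negative cells, erythroid-marked cells and barcodes left out because another library held more of their UMIs, with the number of UMIs above each bar. Hbb-bt is 87.5% and 93.7% of the globin in marker-negative KLS cells and between 11.04% and 28.0% in the marked cells, in the left-out barcodes and in marker-negative MSC KO cells; in marker-negative MSC control cells it is 8.37%.

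Hbb-bt varied among KLS clusters, which were made from both KLS libraries together. In the cluster named HSC/MPP-like for its stem cell markers it stood at 58.4 CPM in the control and 75.4 in the KO. In a cluster led by the S-phase genes Ung and E2f1 it stood at 41.9 and 71.0 CPM. The 2 myeloid-like clusters were at 4.59 and 9.87 CPM in the control and 15.8 and 39.3 in the KO. A lymphoid-primed-like cluster led by Wfdc17 and Ccl3 stood at 11.5 and 59.0 CPM, and its KO value was 22.7 without barcodes that an MSC library also held. The mast/basophil-like cluster had 0 Hbb-bt UMIs in both libraries, which allows up to 12.2 CPM in the control and 21.7 in the KO. These levels differed between clusters beyond their counting intervals, for example 51.6 to 65.9 CPM in the HSC/MPP-like cluster of the control against 5.64 to 16.0 in its larger myeloid-like cluster.

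The other 3 globins stood at a low level in marker-negative cells. Together they made 4.54 CPM (3.91 to 5.25) in KLS control and 3.28 CPM (2.85 to 3.75) in KLS STAT5 KO. In marker-negative MSC cells with under 10% globin they made 125 CPM (108 to 144) and 125 CPM (105 to 148), with overlapping intervals. After thinning to 1000 UMIs, with 5, 2, 35 and 13 shallower cells left out, 0.390%, 0.188%, 12.4% and 14.2% of marker-negative cells had a UMI of these 3 genes in KLS control, KLS STAT5 KO, MSC control and MSC STAT5 KO. With Hbb-bt included the shares were 2.96%, 3.71%, 14.6% and 15% (39 of 260 cells), and without thinning 19.3%, 18.5%, 36.2% and 34.1%. The MSC cells with fewer than 3 markers also include 2 unnamed clusters with Ptprc UMIs, one of 23 control and 13 KO cells led by S100a8 and S100a9 and one of 12 and 6 cells with Vpreb3 and Cd79b among its leading genes. Free RNA in the droplets and red cells caught together with another cell cannot be told apart here.

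Single barcodes decided some globin sums. A marker-negative MSC control cell held 3852 of the 4073 globin UMIs of its group, 43.6% of its 8826 UMIs, together with 9 of the 14 stromal markers, and its barcode was also in KLS control. A KLS STAT5 KO cell with 1 marker and no Ptprc held 1081 globin UMIs, 8.95% of its 12078, and its barcode held 6382 globin UMIs in MSC STAT5 KO. In the MSC libraries 8 control and 2 KO cells with at least 50% globin carried 64.9% and 42.3% of all kept globin UMIs. The 8 and 2 cells lie among the marked cells, whose levels are given above with and without them.

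Alas2 did not stand alone among heme genes. Heme is built by enzymes in sequence, from the condensation of glycine by Alas1 or Alas2 to the insertion of iron by Fech. Of the 8 other heme synthesis genes listed, 6 were at least 2-fold higher in marked than in marker-negative cells of KLS control, among them Cpox (9.46-fold) and Fech (5.20-fold). Alas1, the form used outside red cells, was 2.76-fold lower in marked cells. In KLS STAT5 KO 7 were higher and 1 lower. Over all genes 6.15% were higher in the control and 5.62% in the KO, and 27.9% were lower in each. The list's median log2 ratio was 2.14 in the control and 1.88 in the KO, against -0.27 over all genes in each. So most heme synthesis genes were higher in marked KLS cells, in which Alas2 itself had 0 and 1 UMIs.

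In MSC control 5 of 6 testable heme synthesis genes were higher in marked cells, among them Ppox (30.1-fold) and Fech (29.7-fold), and Alas1 had 0 UMIs in them. In MSC STAT5 KO 4 of 4 were higher. Of all genes tested, 9.59% in the control and 11.5% in the KO were higher in marked cells, and 82% and 78.9% lower. Between the sorts, marked MSC cells had more Ppox (20.7-fold in controls and 24.0-fold in KO), Fech (11.4- and 12.3-fold), Uros (5.24- and 5.47-fold) and Urod (2.98- and 3.52-fold). Alad, the second enzyme, was 4.21-fold and 4.24-fold lower in marked MSC cells. Cpox was 1.22- and 1.35-fold lower, with intervals that include no difference, and Alas1 had 0 UMIs in marked MSC cells against 14 and 31 in marked KLS cells. In KLS this is 12.4 and 15.2 CPM. The marked MSC totals of 125684 and 71602 UMIs are too small to show a difference at that level.

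Tfrc brings iron into the cell, and 16 other genes of iron and heme handling were listed beside it. In marked KLS cells 8 were at least 2-fold higher and 1 lower in the control, and 9 higher and 0 lower in the KO, against 6.15% and 5.62% of all genes higher. Blvrb, a biliverdin reductase, was 25.1- and 31.6-fold higher, the iron exporter Slc40a1 21.2- and 58.3-fold, and the iron transporter Slc11a2 11.7- and 6.31-fold. Slc25a37, which carries iron into mitochondria of red cells, was 1.35-fold lower in both. Its control ratio rests on 29 UMIs in marked cells, and the interval includes no difference (log2 -1.02 to 0.10). In marked MSC cells Slc25a37 was 217-fold and 229-fold higher than in marker-negative cells, and the mitochondrial transporter gene Abcb10 60.7- and 49.2-fold. By the 2-fold mark 5 of 9 tested genes of the list were higher and 4 lower there in the control, and 4 and 4 of 8 in the KO. The lower ones were Steap3 (0 UMIs against 154 and 92), the heme oxygenase Hmox1 (0 and 1 UMI against 277 and 143), and the ferritin genes Fth1 (764 and 684 CPM against 3428 and 2871) and Ftl1 (1050 and 824 CPM against 3155 and 2459). Over all genes 9.59% and 11.5% were higher and 82% and 78.9% lower. Compared with marked KLS cells, Slc25a37 was 114- and 122-fold higher and Abcb10 23.0- and 24.8-fold higher in marked MSC cells, while the iron store gene Fth1 was 3.13- and 3.21-fold lower. Of the list, 2 of 12 tested genes were higher and 6 lower in the controls, and 3 and 8 of 14 in the KO, against 11.8% and 10.5% of all genes higher and 79.2% and 79.9% lower.

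Regulators of the red-cell program were mostly higher in marked KLS cells. Of 11 listed transcription factor and receptor genes, 7 were at least 2-fold higher in each genotype, against 6.15% and 5.62% of all genes, and none was 2-fold lower, against 27.9%, with Klf1 at 244- and 136-fold, Epor at 76.3- and 58.0-fold and Gata1 at 31.4- and 24.5-fold. Nfe2 was 1.76- and 1.33-fold lower and Lmo2 1.80- and 1.34-fold lower. Between the sorts only Nfe2 among these was at least 2-fold higher in marked MSC cells, 7.79-fold in controls and 6.02-fold in KO. In that comparison 6 and 7 of the 11 were 2-fold lower, a smaller share than the 79.2% and 79.9% of all genes. None of the 6 other globin-list genes, which include the embryonic globins, had enough UMIs to be tested in any comparison.

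The carbonic anhydrases were spread differently over KLS cells. The top 1% of kept cells held 97.9% of Car1 UMIs in the control and 90.2% in the KO, but 10.3% and 14.99% of Car2 UMIs. Car1 was concentrated in a cluster of 25 control and 98 KO cells led by Ermap, Mt2, Mt1, Jchain, Aqp1, Ces2g and Blvrb, of which 22 and 84 cells were erythroid-marked. It stood there at 4185 and 3226 CPM. The next highest clusters were at 42.9 CPM in the control, a megakaryocyte-like cluster, and 40.7 CPM in the KO, a cluster in which 619 of 620 cells were KO. The Ermap cluster took no cell type name by the marker rule and held 91.8% of all kept KLS Car1 UMIs.

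Car2 was found in 94.9% of KLS control and 82.3% of KLS STAT5 KO cells, at a median depth of 15136 and 10085 UMIs. It was highest in the Ermap cluster (2516 and 1882 CPM). The 2 megakaryocyte-like clusters had 1092 and 831 CPM in the control and 630 and 596 in the KO, and the HSC/MPP-like cluster 938 and 788 CPM. The lowest Car2 was in a myeloid-like cluster led by Elane and Ms4a3, at 25.2 CPM in the control and 50.5 in the KO. Marker-negative MSC cells had 3 and 4 Car2 UMIs in all, so the Car2 of the MSC libraries lay in the marked cells.

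Tfrc in KLS was also highest in the Ermap cluster, at 181 and 205 CPM. The Elane cluster followed at 52.7 and 41.8 CPM. The HSC/MPP-like cluster was at 12.3 CPM in the control and 8.94 in the KO. Car2 and Tfrc were thus ordered in opposite ways between the HSC/MPP-like and the Elane cluster, in both libraries.

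**Figure D5:**
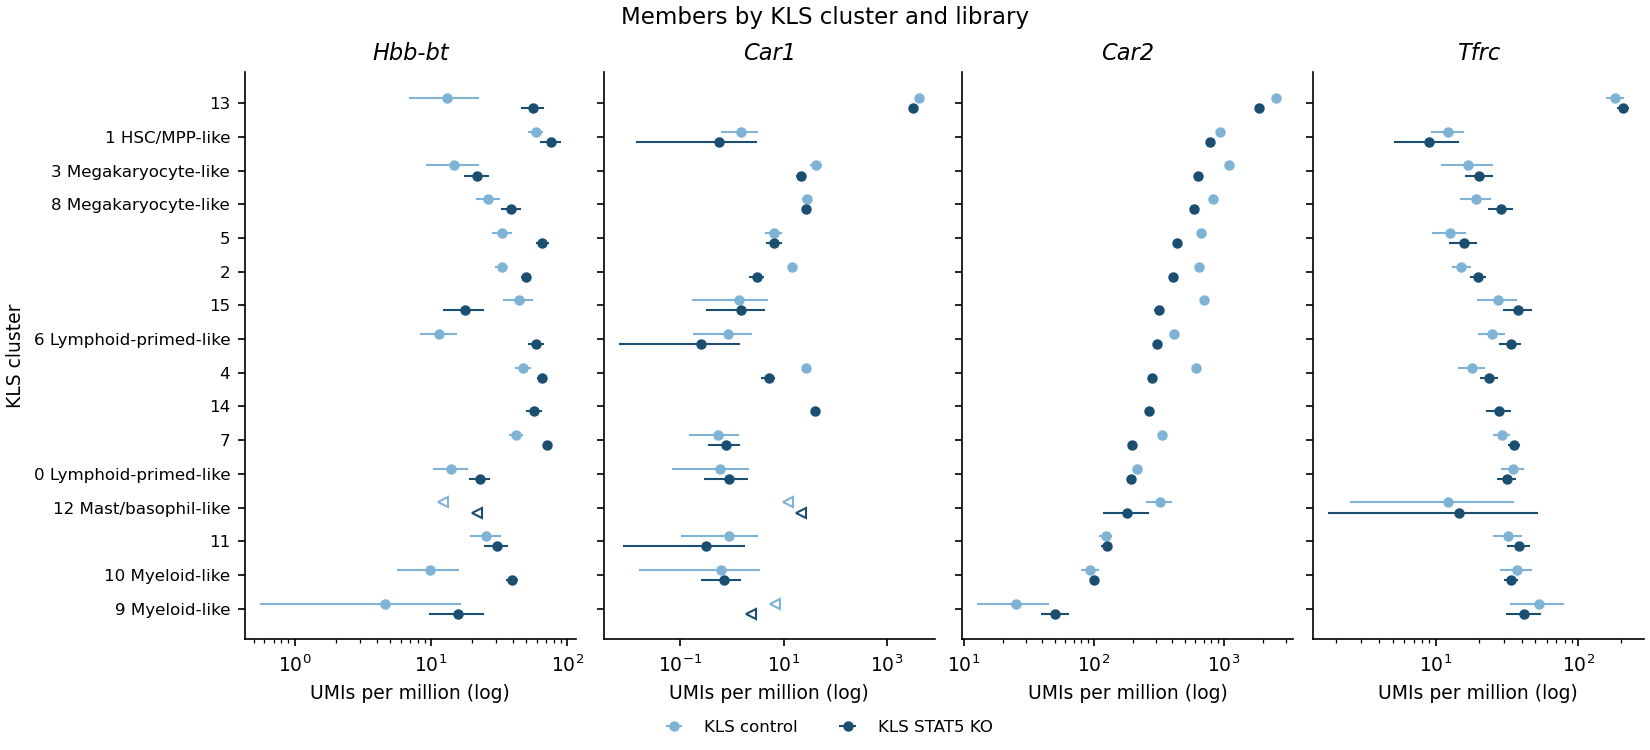
Level of Hbb-bt, Car1, Car2 and Tfrc in each KLS cluster with at least 20000 UMIs, in CPM on a log axis, with control and STAT5 KO side by side and open triangles at the 3-UMI limit where no UMI was found. Car1 peaks in 1 cluster at 4185 and 3226 CPM, Car2 is spread from 25.2 to 2516 CPM, and Hbb-bt is highest in the HSC/MPP-like cluster in both libraries. The Hbb-bt interval of that cluster overlaps that of the next highest cluster in each library. The Ermap cluster is number 13, the Elane cluster 9, the Ung cluster 7 and the Pclaf and Tk1 cluster 4; bars are 95% Poisson intervals, and cluster 6 includes the shared KO barcode.

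The MSC globin lay in a cluster that passed the marker rule as late erythroid-like, with 124 control and 94 KO cells led by Tmcc2, Rsad2, Slc4a1 and Slfn14. It held 94.1% of the kept MSC globin UMIs. Alas2 stood there at 2101 and 1940 CPM, Car2 at 2387 and 2370 CPM and Tfrc at 1575 and 2453 CPM.

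The genes most like each member were ranked over 53 clusters and libraries by the Pearson correlation of log2 CPM with a pseudocount of 10, as a description, since the points share libraries and depth. Alas2 was most like Slfn14 (r = 0.98) and Slc4a1 (0.96). Car1 was most like Gm15915 (0.94) and Pklr (0.93), the red-cell pyruvate kinase. Car2 was most like Tal1 (0.96), Hemgn (0.95) and Nfe2 (0.94). Paqr9 and Rhag (0.86 each) were among the 3 genes most like Tfrc, and Ypel4 and Slfn14 (0.84 each) among the 3 most like the globin sum. Over the 31 KLS points alone, a choice made after seeing the data, Hbb-bt was most like Phtf2 (0.83), with no globin among its top 3.

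The STAT5 KO was then compared with control in the KLS sort, with 1 library on each side. Hbb-bs was 2.88-fold higher in the KO library, at a log2 ratio of 1.53 (1.30 to 1.76), and Hba-a2 2.71-fold, at 1.44 (1.04 to 1.86). Hba-a1 stood at 0.66 and Hbb-bt at 0.61 (0.53 to 0.69). With Car1 at 0.02, Car2 at -0.77 and Tfrc at 0.41, 2 of 7 members passed 2-fold, both higher, against 0.841% of all genes higher and 1.61% lower, 2.45% in either direction.

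The ratios of Hbb-bs, Hba-a1 and Hba-a2 rested on barcodes shared with the MSC libraries, above all the cell with 1081 globin UMIs. Without the barcodes that an MSC library also held, Hbb-bs stood at -0.36 (-0.65 to -0.08), Hba-a1 at -0.28 and Hba-a2 at 0.11, and 0 of 7 members passed 2-fold, against 2.44% of genes in either direction. Hbb-bt stood at 0.56 (0.47 to 0.64), Car1 at 0.02, Car2 at -0.78 (-0.80 to -0.75) and Tfrc at 0.41 (0.31 to 0.51), nearly as before. So Hbb-bt was 1.47-fold and Tfrc 1.33-fold higher, and Car2 1.71-fold lower, in the KLS STAT5 KO library without shared barcodes.

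In marker-negative KLS cells Hbb-bt stood at 0.61 (0.51 to 0.70), Car2 at -0.86 (-0.89 to -0.83) and Tfrc at 0.39 (0.27 to 0.50). Car1, at 39 UMIs in the control and 183 in the KO, was 2.93-fold higher, and Hba-a1, at 61 and 41 UMIs, was 2.38-fold lower, where 0.889% of genes were higher and 1.82% lower. In marked KLS cells Hbb-bt was 4.58-fold higher in the KO (14 against 116 UMIs) and Hba-a2 2.12-fold (18 against 69 UMIs), where 0.888% of genes were higher and 0.783% lower. Car1 and Car2 both stood at -0.29 there. The clusters took different shares of the 2 libraries (493 of 3085 control and 259 of 6726 KO cells were in the HSC/MPP-like cluster), and the part of that in the ratios was not tested.

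Cluster by cluster, Car2 was lower in the KO in 12 of the 15 clusters with enough UMIs in both libraries, with intervals apart in 10. Examples were the HSC/MPP-like cluster (938 against 788 CPM), both megakaryocyte-like clusters (1092 against 630 and 831 against 596) and the Ermap cluster (2516 against 1882). A cluster led by the cell-cycle genes Pclaf and Tk1 had 608 CPM in the control and 279 in the KO. In the Elane cluster the values were 25.2 and 50.5 CPM, with intervals that overlap. Hbb-bt was higher in the KO in 13 of the 15 clusters, with intervals apart in 9, and lower in 1. Tfrc was higher in 11, but its intervals overlapped in all 15. These counts were the same without the barcodes that an MSC library also held.

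In the MSC sort the direction of the globin ratio depended on which cells were counted. Over all kept cells Hbb-bs stood at -1.21 (-1.25 to -1.17), Hbb-bt at -1.23, Hba-a1 at -0.98 and Hba-a2 at -0.99. Alas2 stood at -0.42, Car2 at -0.24 (-0.51 to 0.04) and Tfrc at 0.46 (0.19 to 0.74). The 2 beta-globins passed 2-fold, both lower in the KO, against 2.15% of genes lower, 2.49% higher and 4.64% in either direction.

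Without the barcodes that a KLS library also held, 385 control and 196 KO cells were left and all 7 ratios were positive. Hbb-bs stood at 0.77 (0.71 to 0.83), with 9495 CPM in the control and 16195 in the KO, and Hbb-bt stood at 0.82, Hba-a1 at 0.82 and Hba-a2 at 0.87. Alas2 (1.27, 0.92 to 1.63), Car2 (1.09) and Tfrc (1.35) passed 2-fold, against 11.1% of genes in either direction. Marked cells were 117 of these control cells and 91 of these KO cells, and most of the barcodes left out were marker-negative.

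Within marked cells the globins were lower in the KO library, by less than over all kept cells. Hbb-bs stood at -0.84, Hbb-bt at -0.91, Hba-a1 at -0.64 and Hba-a2 at -0.65, and no member passed 2-fold, against 3.76% of genes. Among the marked cells under 50% globin the ratios were -0.29, -0.26, -0.27 and -0.24, and among marked cells with barcodes outside the KLS libraries -0.35 (-0.41 to -0.29), -0.29, -0.30 and -0.26. No member passed 2-fold in either, against 1.02% and 0.761% of genes. Alas2 (0.15, -0.20 to 0.51) and Car2 (-0.05, -0.39 to 0.29) had intervals that include 0 in the last comparison, which does not show that they were alike.

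In marker-negative MSC cells the 4 globins were 14.2- to 19.8-fold lower in the KO, where 2.32% of genes were lower. These ratios rested on the cell with 3852 globin UMIs. Without it the groups had 221 and 154 globin UMIs and a log2 ratio of -0.03. Tfrc was 2.05-fold higher in these KO cells (29 against 42 UMIs), where 2.60% of genes were higher. The MSC clusters took unequal shares of the libraries: one led by Col9a2 and Col9a1 held 7 control and 25 KO cells, with 70990 and 294068 UMIs. Tfrc stood there at 81.6 CPM in the KO, and the part of these shares in the ratio was not tested.

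The wider lists were compared by genotype too. In kept KLS cells 0 of 8 heme synthesis genes, 0 of 16 iron and heme handling genes and 0 of 11 regulators passed 2-fold between KO and control, where 2.45% of all genes did. In kept MSC cells the counts were 0 of 6, 0 of 13 and 0 of 3, where 4.64% of all genes did. At these list sizes such counts are near the share of all genes and say nothing particular about the lists. With barcodes that a KLS library also held left out they were 2 of 5, 1 of 8 and 1 of 3, all higher in the KO, against 11.1% of genes in either direction. The carbonic anhydrase Car12 was 2.12-fold higher in KLS STAT5 KO (115 against 365 UMIs) and 9.87-fold higher in MSC STAT5 KO (8 against 54 UMIs). The part of unequal cluster shares in these values was not tested.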

How the data were processed

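Single-cell 3′ libraries were made with 10x chemistry from 2 sorts and 2 genotypes, 1 library per group. The authors deposited matrices of UMI counts per gene and barcode. Cell Ranger and the mm10 genome are named in the submitters' processing notes, and software version 3.1.0 per the file headers. The rules for strand and shared reads are not given in the sources used here. Kept barcodes had at least 200 detected genes and at most 10% mitochondrial UMIs, were not marked as doublets (expected rate 0.8% per 1000 cells, which marked 112, 451, 4 and 1 barcodes in KLS control, KLS STAT5 KO, MSC control and MSC STAT5 KO), and had no more UMIs in another library.

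Counts were summed over cells as counts per 1000000 UMIs (CPM) with exact Poisson intervals. Shares have exact Clopper-Pearson intervals and ratios exact conditional binomial ones, at 95% and for counting error only. UMIs of 1 library are not replicates, and no test between groups was made. A gene was called past 2-fold with at least 50 UMIs over both sides. A count of 0 was given the limit of 3 UMIs. The members, marker genes and lists were chosen with earlier results of these data known. Named genes are the members, genes of the listed pathways and the 3 genes most like each of the globin sum, Alas2, Car1, Car2 and Tfrc, and some of these genes are not reported here.

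The 2 libraries of each sort were clustered together with scanpy 1.11.5 (2000 variable genes, 30 components, 15 neighbours, Leiden resolution 1) without the members, and clusters were named only from marker lists. Thinned values use 1000 UMIs per cell. TMM factors came from edgeR 4.0.16. Tested on simulated counts with 200 genes changed 4-fold, the ratio calls for KLS STAT5 KO against control recovered 200 of 200 and called 9 of 12668 unchanged genes. For MSC they recovered 200 of 200 and called 30 of 7033. The simulated sums held counting error only, so these rates do not cover differences between animals or sums set by single barcodes. Alternatives covered the filters, scaling, thinning, marker number, cluster resolution and shared barcodes, and those on shared barcodes of the other sort and on globin-dominated cells were among the ones added after seeing the data.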

Additional observations from a re-analysis of the deposited data

Results flagged for a closer look

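The adult globins had log2 ratios of STAT5 KO to control of opposite sign in the 2 sorts, over all kept cells. The globin sum stood at 0.76 in KLS and -1.12 in MSC, Hbb-bs at 1.53 and -1.21, Hbb-bt at 0.61 and -1.23, Hba-a1 at 0.66 and -0.98, and Hba-a2 at 1.44 and -0.99. With 1 library per group the difference between the sorts was not tested. Without the barcodes that a library of the other sort also held, the globin sum stood at 0.42 in KLS and 0.81 in MSC. Hbb-bt (0.56 and 0.82) and Hba-a2 (0.11 and 0.87) then had the same sign in both sorts, and Hbb-bs (-0.36 and 0.77) and Hba-a1 (-0.28 and 0.82) still had opposite signs.

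Barcodes left out of the MSC libraries held globin RNA as well. In MSC STAT5 KO they held 21222 globin UMIs, against 10155 in MSC control, or 16700 and 5419 CPM of the library. Of these, 11 KO barcodes and 6 control barcodes with at least 50% globin held 20731 and 9688.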

How the results depend on the processing

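No paired analysis was possible because each group has 1 library and the labels give no replicate numbers. Of 122 alternative values for the main comparisons, 72 kept their direction and size, 48 moved and 2 reversed, and for single members the numbers were 78, 31 and 10 of 119. The causes were not tested. The KLS globin ratio (0.76) was 0.62 with barcodes of more UMIs elsewhere kept, 0.41 as a mean of single-cell shares and 0.42 without barcodes of the other sort, and in marker-negative cells (0.51) it was 0.72 and 0.049 for the first 2 of these. The MSC ratio (-1.12) was -0.52 without filters, -6.47 with a strict filter (500 detected genes or more, 5% mitochondrial UMIs or less), -1.07 with TMM, -0.18 as a mean of single cells, -0.43 without cells of 50% globin or more and 0.81 without barcodes of the other sort. In marker-negative MSC cells (-4.22) it was 0.53 without filters, -2.75 as a mean of single cells, -0.027 without cells of 10% globin or more and -0.10 without barcodes of the other sort. Member ratios past 2-fold (4) numbered 2 with barcodes of more UMIs elsewhere kept, 2 without filters, 8 with the strict filter, 1 as a mean of single cells and 2 without cells of 50% globin or more.

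The difference in the share of marked cells was -0.0528 points after thinning in KLS (0.472) and 16.0 without barcodes of the other sort in MSC (3.38). The thinned KLS value rests on 3 marked cells in each library. The share of globin in marked cells was 29.3% with barcodes of more UMIs elsewhere kept and 12.5% from 2 markers in KLS control (5.82%), and 15.3% with those barcodes kept and 9.45% without barcodes of the other sort in KLS STAT5 KO (7.82%). In MSC control (92.5%) it was 81.0% without filters, 77.8% with the strict filter and 99.2% without barcodes of the other sort. In MSC STAT5 KO (98.6%) it was 57.1% without filters, 0% with the strict filter, 99.1% from 2 markers, 98.2% from 4 and 99.1% by cluster. Marker-negative cells with globin made up 4.96%, 6.25%, 22.9% and 20.3% at 2000 UMIs and 19.3%, 18.5%, 36.2% and 34.1% unthinned in KLS control, KLS STAT5 KO, MSC control and MSC STAT5 KO, and 10.2% in MSC STAT5 KO with the strict filter. Genes past 2-fold in KLS (315) numbered 596 from 20 UMIs and 87 from 1 UMI with a pseudocount of 1 CPM, and in MSC (335) 801 and 2478. The main cluster held 92.9% of KLS Car1 (91.8%) at resolutions 0.5 and 2, and 75.4% of MSC globin (94.1%) at resolution 2.

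Single members that reversed were Hbb-bs (-0.36) and Hba-a1 (-0.28) in KLS without barcodes of the other sort, Hba-a1 (-0.13) in KLS and Alas2 (0.34) in MSC as means of single cells, and Alas2 (0.20) in MSC without cells of 50% globin or more. In MSC without barcodes of the other sort Hbb-bs (0.77), Hbb-bt (0.82), Hba-a1 (0.82), Hba-a2 (0.87) and Alas2 (1.27) reversed too. A KLS fit by clusters with a late erythroid name was not run, since no KLS cluster took that name. Depth limits the MSC values of Alas2, Car2 and Tfrc, which rest on 141 to 303 UMIs per library.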
